A study of Homo sapiens with 6 samples.

Results

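The transcripts of 10 chemokines that kidney tubular cells can secrete were followed in HK-2 cells, an immortalised human proximal tubular epithelial line. They were chosen by name as CXCL1, CXCL2, CXCL3, CXCL5, CXCL6, CXCL8, CXCL16, CCL2, CCL20 and CX3CL1, and each matched 1 of the 35035 gene rows of the deposited table. Of the 10, 9 had enough reads to be tested, among 19349 tested genes; CXCL6 had not. The tested cells had been transfected with a plasmid that overexpresses circAASS, a circular RNA named after the gene AASS, and the control cells, whose genotype is labelled WT, with empty-vector plasmids (3 libraries each). Cells of both groups went through 24 h of hypoxia (1% oxygen) and then 12 h of reoxygenation, so no comparison with normal oxygen is made here. The comparison asks which chemokine transcripts differ with the circAASS plasmid in this cell model of ischaemia and reperfusion. Values are RPKM, read numbers divided by gene length and library total. The level of circAASS itself was not analysed here.

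Chemokines are small proteins that leukocytes follow to a site of injury. CXCL8, CXCL1, CXCL2, CXCL3, CXCL5 and CXCL6 carry a glutamate-leucine-arginine motif before the CXC cysteines and attract neutrophils through the receptors CXCR1 and CXCR2; their genes lie together on chromosome 4. CCL2 attracts monocytes through CCR2, and CCL20 attracts cells that bear CCR6. CX3CL1 and CXCL16 are made as membrane proteins with a chemokine domain on a stalk, from which the proteases ADAM10 and ADAM17 release it. Transcription of many of these genes is induced by NF-kB together with AP-1 and C/EBP factors, and many of their mRNAs are short-lived because of AU-rich elements.

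The stretches of 250 bases before the RefSeq transcription start (GRCh38.p14) are shown for the 3 members of the chromosome 4 cluster that passed the test and for CXCL1, the closest relative of CXCL2 and CXCL3, because these genes did not move alike. Each is written 5′ to 3′ on the strand of its gene, and capitals mark matches to the NF-kB motif GGNNTTTCC, searched on both strands.
CXCL8 (chr4:73740319-73740568, forward strand): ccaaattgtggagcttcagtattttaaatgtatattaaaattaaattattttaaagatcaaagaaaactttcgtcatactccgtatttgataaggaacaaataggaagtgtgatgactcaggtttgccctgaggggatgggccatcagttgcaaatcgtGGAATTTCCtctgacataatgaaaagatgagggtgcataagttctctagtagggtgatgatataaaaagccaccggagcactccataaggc
CXCL2 (chr4:74099196-74099445, reverse strand): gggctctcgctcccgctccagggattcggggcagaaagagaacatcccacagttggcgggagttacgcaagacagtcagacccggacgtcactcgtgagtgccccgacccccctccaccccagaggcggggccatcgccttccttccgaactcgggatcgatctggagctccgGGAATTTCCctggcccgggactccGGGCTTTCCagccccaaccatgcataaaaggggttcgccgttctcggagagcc
CXCL3 (chr4:74038690-74038939, reverse strand): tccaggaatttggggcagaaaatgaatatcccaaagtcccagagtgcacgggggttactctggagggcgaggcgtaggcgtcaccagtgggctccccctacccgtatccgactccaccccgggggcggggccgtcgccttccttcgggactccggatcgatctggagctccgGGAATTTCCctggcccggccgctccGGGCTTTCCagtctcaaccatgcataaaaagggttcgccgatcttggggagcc
CXCL1 (chr4:73869143-73869392, forward strand): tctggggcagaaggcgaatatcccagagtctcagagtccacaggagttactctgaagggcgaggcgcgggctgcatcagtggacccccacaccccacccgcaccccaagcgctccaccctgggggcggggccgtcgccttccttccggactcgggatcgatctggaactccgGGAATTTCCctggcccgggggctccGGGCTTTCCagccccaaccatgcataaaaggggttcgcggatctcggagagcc

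RefSeq windows were found for 7 of the 10 members. All 7 held at least 1 match to GGNNTTTCC, against 5.48% of 27305 promoter windows of the same length. The 7 are not independent, because some are alike: CXCL5 and CXCL6 were 85.3% identical and CXCL1 and CXCL3 81.4%. The letters GGAATTTCC recurred in the 6 CXC members of chromosome 4, and ended 83 bases before the start in CXCL8, 69 in CXCL2 and 70 in CXCL3. A further match, GGGCTTTCC, ended 45 bases before the start in CXCL1, CXCL2 and CXCL3. The AP-1 motif TGANTCA, which reads the same on both strands, was found in CXCL8 alone among the 7, and in 6.6% of all windows. The TATA motif TATAAA was found in CXCL8 and CCL20 and in 11.1% of all windows. The windows of CXCL2 and CXCL3 were 73.4% identical, and those of CXCL8 and CXCL3 47.9%. CXCL8 thus had a window unlike those of CXCL2 and CXCL3, at 37.6% G and C against 64.4% and 62.8%. A match is a run of letters and not a shown binding site.

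Library totals were 47384881 to 58179564 reads with the circAASS plasmid and 45148425 to 52470055 with empty vector. Keratins and PAX8 of kidney epithelium were present (KRT8 averaged 149 and 127 RPKM and PAX8 42.3 and 25 RPKM, circAASS and vector). Of 6 epithelial markers, all tested, 3 rose and 1 fell, beside 16.0% and 16.3% of all tested genes. In this list 1 gene stayed under 1 RPKM in every library. EPCAM was the marker that fell, and it no longer passed in 5 of 6 fits that each left out a library. All 5 proximal tubule markers that were tested differed, 2 higher and 3 lower: CDH6 averaged 4.89 and 13.5 RPKM (limma adjusted p = 5.52e-05), SLC5A2 1.87 and 3.85 RPKM and GGT1 7.11 and 9.25 RPKM. Their part in the chemokine results was not tested. However, 6 of 11 proximal tubule markers matched in the table (LRP2, CUBN, SLC34A1, AQP1, ANPEP and HNF4A) had too few reads to be tested. Of 12 leukocyte markers, 9 stayed under 1 RPKM in every library, and the pan-leukocyte gene PTPRC averaged 0.00805 RPKM with the plasmid and 0.00661 RPKM with vector. The summed level of the leukocyte list was 80.1 to 103 RPKM with the plasmid and 104 to 108 RPKM with vector, nearly all of it CD68, a lysosomal protein; without CD68 it was 1.9 to 2.33 RPKM and 2.42 to 2.55 RPKM. Sums over 6 endothelial markers were 0.0767 to 0.109 and 0.0754 to 0.107 RPKM, and those over 6 fibroblast markers 4.17 to 4.49 and 3.69 to 4.46 RPKM. The labels name no separate cultures, so each p-value rests on a spread between libraries that may be technical.

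CXCL8 (interleukin 8, the main human neutrophil attractant) was the chemokine with the highest level and rose with the circAASS plasmid, whereas CXCL2 and CXCL3 fell. CCL2, very low in both groups, rose, and the other 5 tested chemokines did not pass the test. Thus 2 of 9 rose and 2 fell, where 32.3% of all 19349 tested genes passed, 16.0% as higher and 16.3% as lower (limma, Benjamini-Hochberg adjusted p under 0.05). The median log2 fold change was -0.10 over the 9 chemokines and -0.01 over all tested genes. The rise of CCL2 carries less than the other calls: CCL2 passed the filter on low values through the circAASS libraries alone, and its call was lost with no filter (adjusted p = 0.122), with the repeat number as a block (0.0578) and in 3 of 6 omissions of a library (circAASS repeat 1, vector repeat 1 and vector repeat 3, up to 0.0857). Groups did not overlap in 5 of the 9 (CXCL8 and CCL2 above vector, CXCL2, CXCL3 and CXCL5 below it), and in 47.5% of all tested genes, 17.1% above and 30.3% below.

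**Figure D1:**
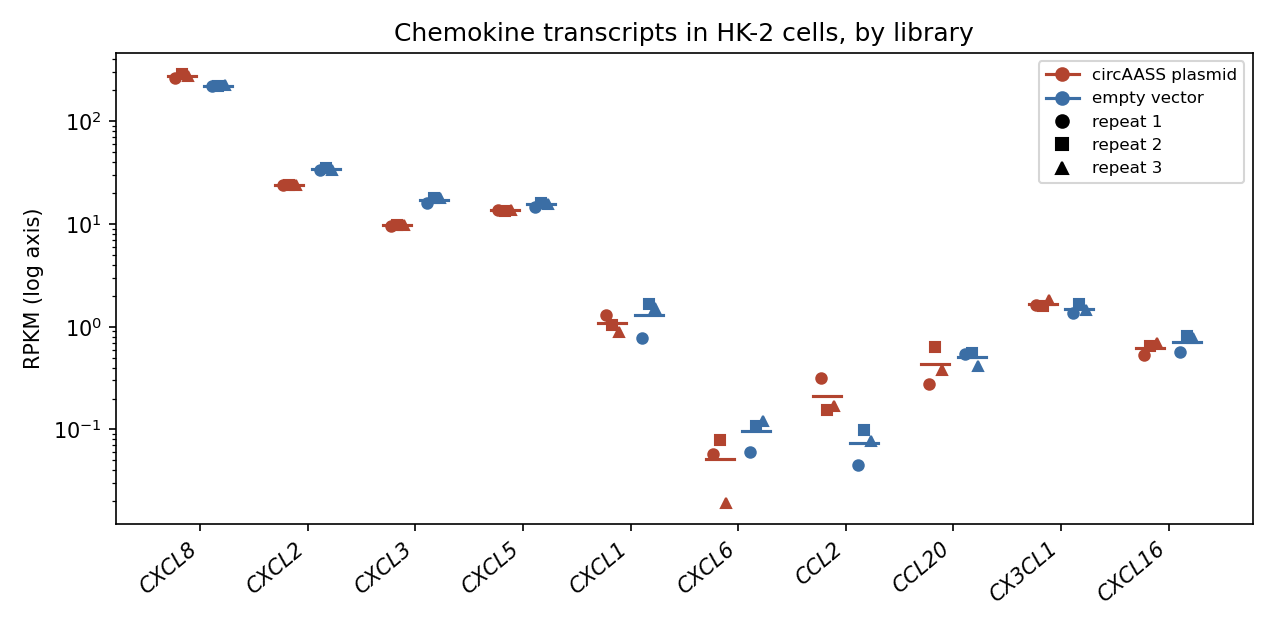
RPKM (log axis) of the 10 chemokines in each library, circAASS plasmid in red left of empty vector in blue; symbols mark the repeat and lines the mean of 3 libraries. CXCL8 lies between 219 and 286 RPKM, CXCL2, CXCL3 and CXCL5 between 9 and 36 RPKM, and the other 6 below 2 RPKM.

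CXCL8 (chromosome 4, 73740506 to 73743716, forward strand, GRCh38) was measured at 263, 286 and 273 RPKM with the circAASS plasmid and at 220, 219 and 227 RPKM with vector. All 3 circAASS libraries lay above all 3 vector libraries. The means were 274 ± 11.2 RPKM with the plasmid and 222 ± 4.47 RPKM with vector (SD, n = 3 each). After scaling, the log2 fold change on the log2(RPKM + 0.1) scale was 0.38 (SE 0.05, 95% interval 0.27 to 0.49; limma adjusted p = 0.00146). CXCL8 ranked 156 by level among the 19349 tested genes with the plasmid and 188 with vector.

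CXCL2 and CXCL3, which bind CXCR2, moved the opposite way. CXCL2 (chromosome 4, 74097035 to 74099293, reverse strand) was at 24.1, 24.2 and 24.2 RPKM with the circAASS plasmid and at 33.8, 35.3 and 33.9 RPKM with vector. The circAASS libraries were all below the vector libraries and nearly equal to each other. The means of CXCL2 were 24.2 ± 0.0423 RPKM and 34.3 ± 0.851 RPKM, and the log2 fold change was -0.43 (SE 0.04, 95% interval -0.54 to -0.33; limma adjusted p = 0.000796).

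CXCL3 (chromosome 4, 74036589 to 74038807, reverse strand) fell further. It was at 9.61, 9.79 and 9.71 RPKM with the plasmid and at 16.1, 17.8 and 18 RPKM with vector. Here too the groups did not overlap. The means of CXCL3 were 9.70 ± 0.09 RPKM and 17.3 ± 1.03 RPKM, a log2 fold change of -0.75 (SE 0.06, 95% interval -0.88 to -0.62; limma adjusted p = 0.000264). By level CXCL3 ranked 4025 among tested genes with the plasmid and 2440 with vector. The calls of CXCL8, CXCL2 and CXCL3 held whichever of the 6 libraries was omitted.

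CXCL5, a further ligand of CXCR2 made by epithelial cells, did not pass after trimmed-mean scaling. CXCL5 (chromosome 4, 73995642 to 73998779, reverse strand) was at 13.8, 13.5 and 13.7 RPKM with the plasmid and at 14.5, 16.2 and 15.8 RPKM with vector. These deposited values did not overlap between the groups, yet the scaled difference was small. Its log2 fold change was -0.10 (SE 0.06, 95% interval -0.23 to 0.03) and did not pass (limma adjusted p = 0.193). With library size as the sole scaling it was -0.18 and passed (adjusted p = 0.0492).

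CXCL1, also known as the growth-related oncogene alpha, was weakly expressed. It stood at 1.3, 1.05 and 0.896 RPKM from 81, 79 and 55 reads with the plasmid, and at 0.769, 1.66 and 1.51 RPKM from 45, 110 and 103 reads with vector. The vector libraries were spread around all of the circAASS values, repeat 1 being the lowest of all 6. The log2 fold change of CXCL1 was -0.14 (SE 0.28, 95% interval -0.79 to 0.51; limma adjusted p = 0.728). Without vector repeat 2 its sign turned, to 0.05.

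CXCL6, a ligand of both CXCR1 and CXCR2, was represented by 6, 10 and 2 reads with the plasmid and by 6, 12 and 14 with vector. That corresponds to 0.0573, 0.0787 and 0.0193 RPKM and to 0.0609, 0.108 and 0.122 RPKM. The groups overlapped, and a difference was not detectable at this depth. Fitted without the filter on low values, it had a log2 fold change of -0.35 (adjusted p = 0.524).

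**Figure D2:**
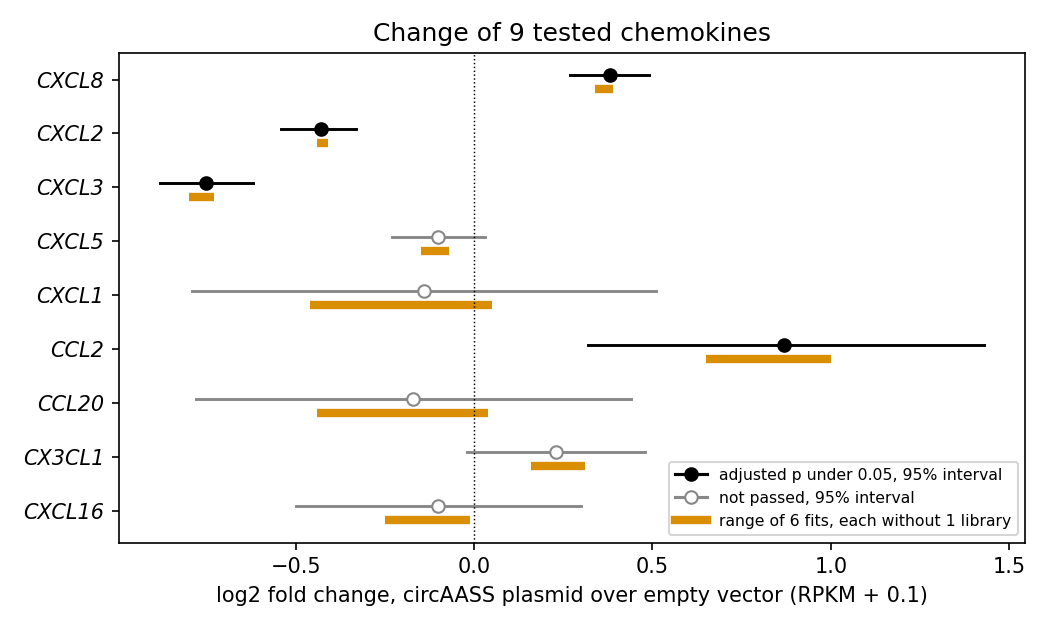
Log2 fold change (circAASS plasmid over empty vector, log2(RPKM + 0.1) scale) of the 9 tested chemokines with 95% intervals; filled points passed the test, and orange bars span the 6 fits that each left out 1 library. CXCL8 and CCL2 lie right of 0 and CXCL2 and CXCL3 left of it, CCL2 with the widest interval of these 4.

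CCL2, the monocyte attractant MCP-1 (chromosome 17, 34255218 to 34257203, forward strand), stood at 0.315, 0.156 and 0.17 RPKM with the circAASS plasmid and at 0.0446, 0.0987 and 0.0768 RPKM with vector. These values came from 30, 18 and 16 reads and from 4, 10 and 8 reads. The groups did not overlap, with repeat 1 highest among the circAASS libraries. All 6 numbers are even, as were 78.6% of read numbers from 1 to 20 in the table, which is how counting each mate of a pair would look, so the RNA fragments may be fewer than the reads. The log2 fold change was 0.87 (SE 0.24, 95% interval 0.32 to 1.43; limma adjusted p = 0.0279), and the ratio of the mean deposited RPKM was 2.91. A gene that passes the filter through its higher group alone had to differ. Where the call was lost on omitting a library, the log2 fold change was 0.65 without circAASS repeat 1, 0.75 without vector repeat 1 and 0.89 without vector repeat 3. Even with the plasmid, CCL2 ranked 17242 by level among the tested genes.

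CCL20, the ligand of CCR6, was low and variable. It stood at 0.279, 0.64 and 0.377 RPKM with the plasmid, against 0.544, 0.555 and 0.412 RPKM with vector. Repeat 2 with the plasmid was the highest and repeat 1 the lowest of all 6. Its log2 fold change was -0.17 (SE 0.26, 95% interval -0.78 to 0.44; limma adjusted p = 0.651), and it turned to 0.04 without circAASS repeat 1. The reads behind CCL20 are less certain than those of the others, because its annotated length did not give whole reads.

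Of the membrane-anchored chemokines, CX3CL1 (fractalkine, whose receptor is CX3CR1) stood at 1.62, 1.61 and 1.82 RPKM with the plasmid and at 1.35, 1.68 and 1.47 RPKM with vector. The groups overlapped through vector repeat 2. The log2 fold change of CX3CL1 was 0.23 (SE 0.11, 95% interval -0.02 to 0.48; limma adjusted p = 0.139). CXCL16, the ligand of CXCR6 and a scavenger receptor, stood at 0.53, 0.646 and 0.702 RPKM with the plasmid and at 0.563, 0.807 and 0.784 RPKM with vector. Its groups overlapped as well, with a log2 fold change of -0.10 (SE 0.17, 95% interval -0.50 to 0.30; limma adjusted p = 0.679). MED11 lies antisense to 3.0% of the exon bases of CXCL16.

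The order of the levels differed between the groups in the middle and at the low end. With the plasmid it ran CXCL8, CXCL2, CXCL5, CXCL3, CX3CL1, CXCL1, CXCL16, CCL20, CCL2 and CXCL6. The ranges of neighbours overlapped between CXCL16 and CCL20 and between CCL20 and CCL2. With vector it ran CXCL8, CXCL2, CXCL3, CXCL5, CX3CL1, CXCL1, CXCL16, CCL20, CXCL6 and CCL2. There the neighbours CXCL3 and CXCL5, CX3CL1 and CXCL1, CXCL1 and CXCL16, and CXCL6 and CCL2 overlapped. CXCL5 was thus above CXCL3 in all 3 circAASS libraries and below it in all 3 vector libraries.

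Measured per length, the 10 chemokines summed to 315, 337 and 325 RPKM with the circAASS plasmid and to 288, 293 and 299 RPKM with vector. CXCL8 made up 83.6%, 84.7% and 84.1% of that sum with the plasmid and 76.5%, 74.7% and 75.9% with vector. CXCL2 made up 7.66%, 7.17% and 7.44% with the plasmid and 11.7%, 12.0% and 11.3% with vector. The summed level was higher and its CXCL8 share larger with the plasmid in all libraries, while the share of CXCL2 was smaller. CXCL3 made up 3.05%, 2.90% and 2.99% with the plasmid and 5.60%, 6.08% and 6.01% with vector. The 6 CXC genes of chromosome 4 together held 99.1% in each circAASS library and 98.9% to 99.1% in the vector libraries.

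**Figure D3:**
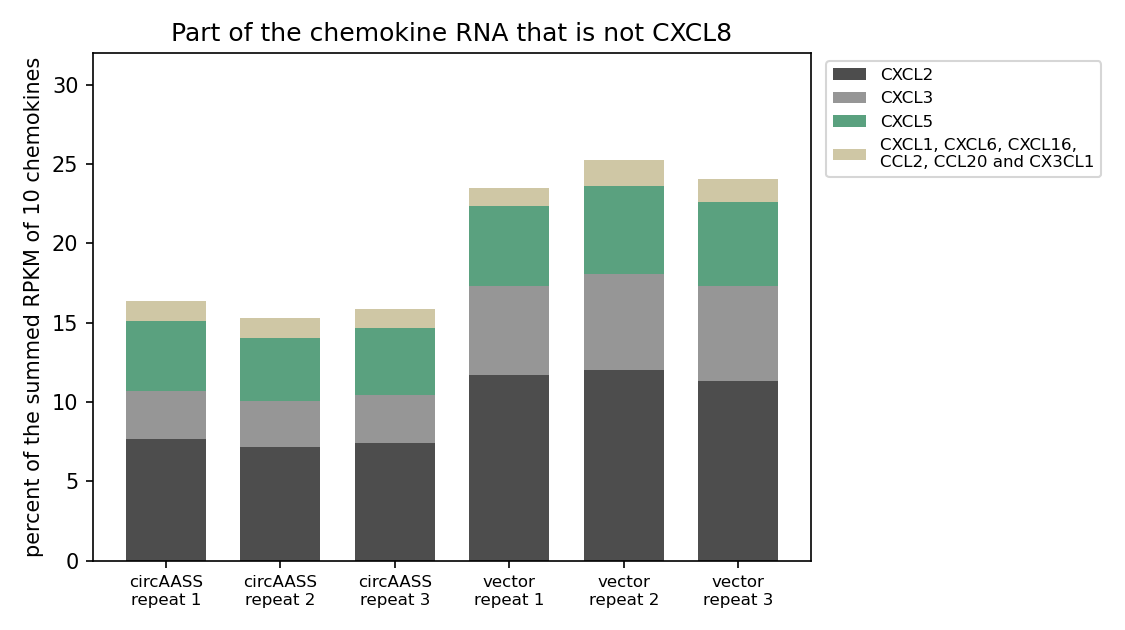
Percent of the summed RPKM of the 10 chemokines that is not CXCL8, for each library; bars start at 0 and are stacked by gene. CXCL2 and CXCL3 take smaller parts in the 3 circAASS libraries (7.17% to 7.66% and 2.90% to 3.05%) than in the 3 vector libraries (11.3% to 12.0% and 5.60% to 6.08%).

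Ratios of 2 transcripts within a library do not depend on the scaling between libraries. The ratio of CXCL8 to CXCL3 was 27.4, 29.2 and 28.1 with the plasmid and 13.7, 12.3 and 12.6 with vector, a log2 difference of 1.14. That of CXCL8 to CXCL2 was 10.9, 11.8 and 11.3 with the plasmid and 6.52, 6.20 and 6.70 with vector, a log2 difference of 0.81. CXCL8 therefore stood higher against both in each circAASS library. The ratio of CXCL8 to CXCL5 averaged 20.1 ± 1.07 with the plasmid and 14.4 ± 0.84 with vector (SD, n = 3 each). The ratio of CXCL2 to CXCL3 was 2.51, 2.47 and 2.49 with the plasmid and 2.09, 1.98 and 1.89 with vector. CXCL3 was thus lower relative to CXCL2 as well. In each of the 6 ratios among CXCL8, CXCL2, CXCL3 and CXCL5 the groups were separate. The two-sided exact permutation p was 0.1, the smallest that 3 against 3 libraries allow, and adjusted over the 6 it was also 0.1. The ratios with CXCL8 had to separate, because CXCL8 lay above vector and the other genes below it in every circAASS library. The 6 ratios reuse the same genes and are not independent.

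**Figure D4:**
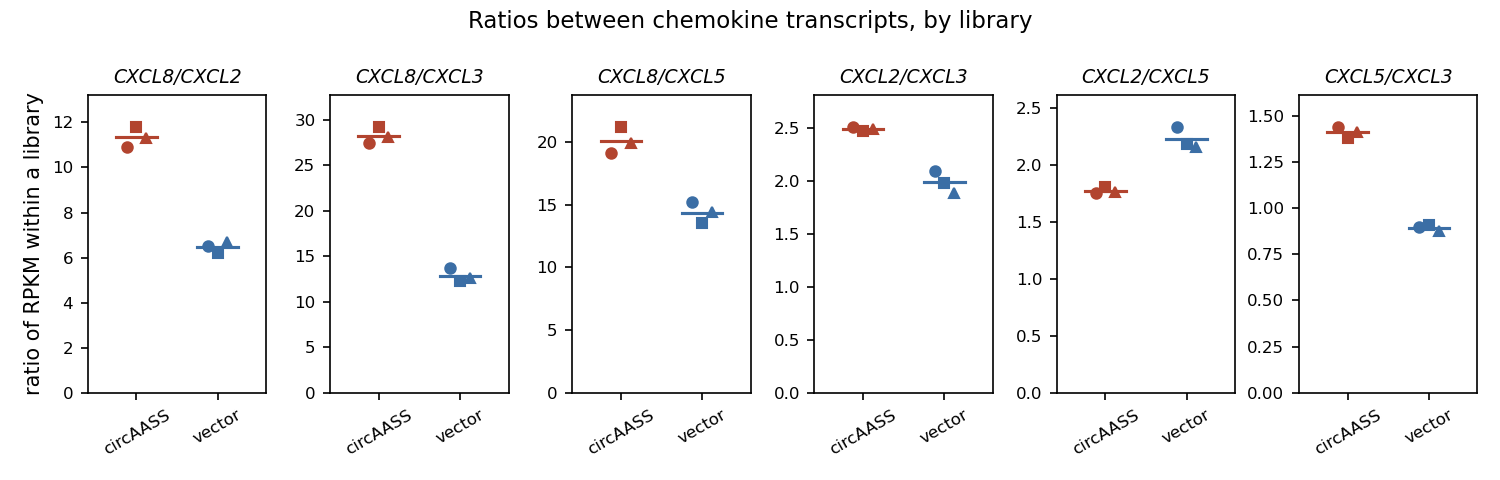
Ratio of the RPKM of 2 chemokines within each library (vertical axes from 0, a scale of its own in each panel), circAASS plasmid left of vector, with lines at the mean of 3 libraries. In all 6 panels the circAASS and vector libraries are separate, CXCL2/CXCL5 being lower and the other 5 ratios higher with the plasmid.

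The coding sequences of CXCL2 and CXCL3 are 94.4% identical, and those of CXCL1 and CXCL2 93.5%, so reads of these genes can be hard to assign. Exact runs of at least 50 bases shared with transcripts of other genes covered 33.5% of the GENCODE transcript bases of CXCL2, 15.4% of those of CXCL3 and 22.0% of those of CXCL1. The longest run, shared by CXCL2 and CXCL3, was 178 bases, longer than a read of 150 bases. CXCL8 and CCL2 shared no such run with any transcript. How reads with several matching places were treated is not given in the sources used here, so the split between CXCL2 and CXCL3 is uncertain. Their sum does not depend on that split: in reads worked out from RPKM and scaled to CPM with trimmed-mean factors, it was 60.0, 59.8 and 58.0 CPM with the plasmid and 84.9, 90.4 and 87.5 CPM with vector. The sum was lower in all 3 circAASS libraries, at 0.677 times the vector mean.

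The CXC genes of the cluster lie within 359 kb. From CXCL8 at one end, the starts of CXCL6, CXCL1, CXCL5, CXCL3 and CXCL2 follow at 96, 129, 258, 298 and 359 kb. The rise was at the CXCL8 end, on the forward strand, and both falls were at the CXCL2 end, on the reverse strand. Of other tested genes within 250 kb of a cluster member, RASSF6, 119875 bases from CXCL8, averaged 0.835 RPKM with the plasmid and 1.24 RPKM with vector, a fall of log2 fold change -0.45 (limma adjusted p = 0.0401). RASSF6 did not pass when any library other than vector repeat 1 was omitted (highest adjusted p 0.128). MTHFD2L, 14881 bases from CXCL2, averaged 0.682 and 0.714 RPKM (log2 fold change 0.01, adjusted p = 0.960). Over all 10 members, 38 other genes within 250 kb were tested, of which 8 rose and 7 fell, beside 16.0% and 16.3% of all tested genes. Near CXCL16, SMTNL2, PSMB6 and MYBBP1A rose and INCA1 fell, and near CX3CL1, CCDC102A rose and COQ9 and ADGRG1 fell, in every setting that tested them. The pseudogene HMGB3P32, near CX3CL1, had 10, 12 and 10 reads with the plasmid and 2, 0 and 2 with vector, and it too passed the filter on low values through the circAASS libraries alone. The rises of C17orf107, CHRNE and RSPRY1 and the falls of MED11, DOK4 and FAM192A were lost in 4 to 6 of the 6 omissions of a library, at adjusted p of up to 0.111.

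**Figure D5:**
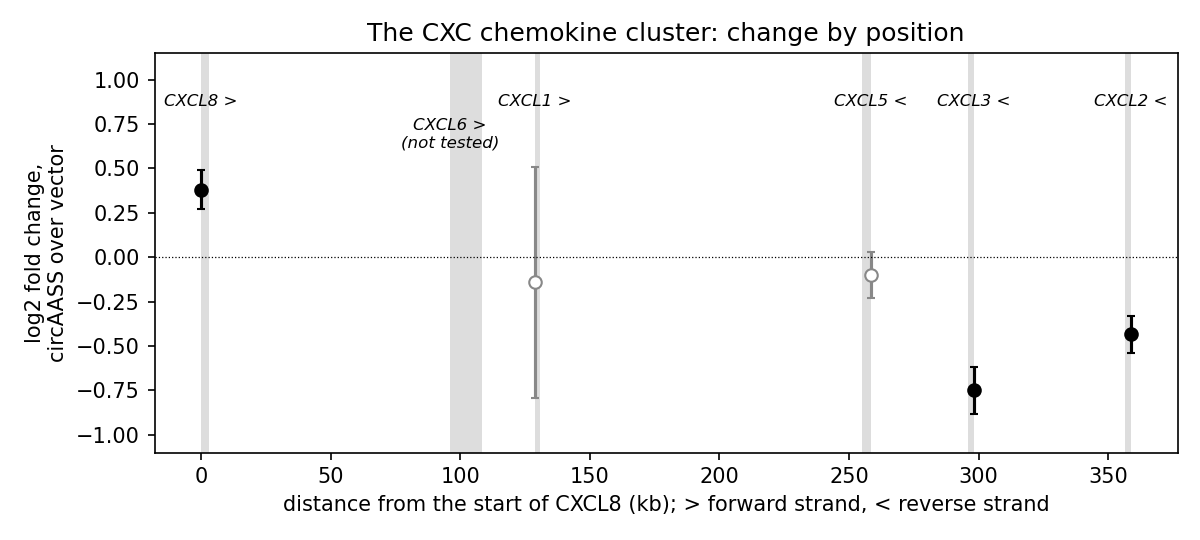
Log2 fold change (circAASS over vector, with 95% intervals) of the 5 tested CXC genes of the chromosome 4 cluster, plotted at their distance in kb from the start of CXCL8; grey bands are the gene bodies, and filled points passed the test. CXCL8 at 0 kb is above 0, and CXCL3 at 298 kb and CXCL2 at 359 kb are below it.

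AU-rich elements, through which chemokine mRNAs are degraded, were counted in the longest annotated 3′ untranslated region of each gene. The pentamer AUUUA occurred 10 times in CXCL2, 7 times in CXCL3 and 9 times in CXCL8, against a median of 2 over 13250 tested coding genes. Per kb this was 13.9 in CXCL2, 10.4 in CXCL3 and 7.19 in CXCL8, with a median of 1.65 over those genes. CXCL5, which did not pass, held the most copies (11, or 5.51 per kb). CXCL1 and CCL20, which did not pass either, held 7.08 and 6.24 per kb, and CXCL6, which was not tested, 5.36. By density CXCL2, CXCL3 and CXCL8 ranked above all other members, CXCL8 narrowly above CXCL1, though CXCL8 rose and CXCL2 and CXCL3 fell. CCL2 ranked below CXCL5, CXCL6 and CCL20. Counting error limits CXCL1, CXCL6, CCL2 and CCL20, with 2 to 110 reads a library. A link between density and change was not tested. The nonamer UUAUUUAUU was present in 5 of the 10 members (CXCL1, CXCL2, CXCL3, CXCL8 and CX3CL1) and in 9.27% of those genes. CCL2, called as higher, held 1 AUUUA (2.11 per kb) and no nonamer.

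Of 29 factors listed for decay and stability of mRNAs with such elements, all tested, 8 rose, 5 fell and 16 missed the threshold (median log2 fold change 0.14). These counts stand beside 16.0% of all tested genes that rose and 16.3% that fell. The list holds deadenylases and nucleases of mRNA decay as well as proteins that bind the elements. Library size as the sole scaling gave 4 factors that rose and 6 that fell. The deadenylase subunit CNOT3 rose to 19.3 RPKM with the plasmid, against 14.9 RPKM with vector (log2 fold change 0.44, limma adjusted p = 0.00124). BTG1, which promotes deadenylation, and the deadenylase CNOT8 rose by 0.53 and 0.29 on the log2 scale. ZFP36 (tristetraprolin), which binds these elements and brings in the deadenylase, averaged 1.96 ± 0.103 RPKM with the plasmid and 1.50 ± 0.239 RPKM with vector, and passed (adjusted p = 0.0383). ZFP36 did not pass with library size as the sole scaling, with no filter, or without any library other than vector repeat 1 (highest adjusted p 0.103). MAPKAPK2, whose groups overlapped, ZFP36L1 and DCP1A were also among those that rose. Their calls were lost in 5, 3 and 3 of the 6 omissions of a library. The 5 that fell were TIA1, XRN1, PARN, MAPKAPK3 and CNOT6L, of which TIA1, a translational repressor, was at 3.11 RPKM with the plasmid and 4.46 RPKM with vector. The similarly named TIAL1 rose instead, to 7.32 RPKM with the plasmid, against 5.82 RPKM with vector. Its log2 fold change was 0.39 (limma adjusted p = 0.0121), and its call held in all 14 alternatives. CNOT6L was not called with no filter, with the repeat number as a block or without any library other than circAASS repeat 2 (highest adjusted p 0.0783), and MAPKAPK3 not with the block or without circAASS repeat 3 or vector repeat 3 (0.0767). ZC3H12A, the nuclease regnase-1, averaged 7.21 and 8.66 RPKM and did not pass (adjusted p = 0.0516).

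Transcription factors and cofactors known from chemokine promoters were all tested: 10 of 24 rose, 6 fell and 8 missed the threshold (median log2 fold change 0.17). Over all tested genes 16.0% rose and 16.3% fell. With library size as the sole scaling 7 of the 24 rose and 6 fell. NFKBIA, the inhibitor of NF-kB that NF-kB itself induces, rose to 80.9 ± 1.56 RPKM with the plasmid, against 54.1 ± 0.737 RPKM with vector (log2 fold change 0.65, limma adjusted p = 0.000151). The AP-1 subunits FOSB (2.88 and 1.44 RPKM) and JUN (71.2 and 56.5 RPKM, circAASS and vector) rose as well, as did the chromatin protein HMGA1 (242 and 166 RPKM). RELA, the NF-kB subunit p65, averaged 12.1 ± 1.66 RPKM with the plasmid and 12.9 ± 0.873 RPKM with vector and did not pass (adjusted p = 0.828). NFKB1, the p50 precursor, rose to 14.3 RPKM with the plasmid, against 11.8 RPKM with vector (adjusted p = 0.00379). Also among the 10 that rose were NFKB2 (21.5 and 19.1 RPKM), RELB (5.44 and 4.59 RPKM), FOSL1 (55.6 and 47.1 RPKM), JUND and ATF3. The calls of RELB, JUND and ATF3 were lost in 3, 3 and 5 of the 6 omissions of a library. The 6 that fell were CEBPD (6.43 and 9.97 RPKM), CEBPA (0.534 and 1.21 RPKM), CUX1, JUNB, SP1 and NFKBIZ. The call of NFKBIZ held in 6 of 14 alternatives (highest adjusted p 0.109). It was lost with no filter, without trend and with the repeat number as a block. Of the 6 omissions of a library, 5 lost it, all but that of circAASS repeat 2. Levels of mRNA do not measure the activity of these factors.

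Of 26 tested genes of the IL1, TNF, IL17 and Toll-like receptor pathways that induce chemokines, 4 rose, 3 fell and 19 missed the threshold (median log2 fold change -0.09). Among all tested genes 16.0% rose and 16.3% fell. With library size as the sole scaling 4 pathway genes rose and 5 fell. Those that rose were the adaptors TAB2 (22.4 and 16.9 RPKM, circAASS and vector), TICAM1 (4.48 and 3.34 RPKM) and TRAF2 (15.5 and 11.9 RPKM) and the kinase IRAK1 (35.7 and 29.6 RPKM), with limma adjusted p of at most 0.00388. Those that fell were the cytokine IL18, at 2.25 ± 0.457 RPKM with the plasmid and 6.13 ± 0.351 RPKM with vector, the kinase RIPK1 (10.2 and 12.9 RPKM) and TAB1 (1.95 and 2.63 RPKM). TAB1 no longer passed without circAASS repeat 3 or vector repeat 2 (highest adjusted p 0.0744). TNF, a main inducer of chemokines, stood at 0.61, 0.441 and 0.227 RPKM with the plasmid and at 0.251, 0.152 and 0.0455 RPKM with vector; its groups overlapped and it did not pass (adjusted p = 0.0632).

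Among proteases that release or trim chemokines, 4 of 12 tested genes fell, beside 16.3% of all tested genes, and 8 did not pass; with library size as the sole scaling 6 fell. MMP14, a membrane-anchored metalloproteinase, fell to 49.5 ± 1.64 RPKM with the plasmid, against 69.9 ± 0.604 RPKM with vector (log2 fold change -0.42, limma adjusted p = 0.00109). MMP7, matrilysin, was at 14.8 and 22.4 RPKM and the collagenase MMP1 at 2.65 and 4.43 RPKM, circAASS and vector. RHBDF2, the iRhom that escorts ADAM17 to the cell surface, was at 1.43 and 2.32 RPKM. MMP1 no longer passed without circAASS repeat 2, circAASS repeat 3 or vector repeat 2 (highest adjusted p 0.0684). The sheddases themselves (named after their values were seen) averaged 8.37 ± 0.534 and 8.31 ± 0.167 RPKM for ADAM10 and 9.01 ± 0.108 and 9.41 ± 0.451 RPKM for ADAM17, and neither passed (adjusted p = 0.302 and 0.881).

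Most other chemokines and receptors had too few reads to be tested. Of 36 other chemokines listed, 25 were matched, 24 of them under 1 RPKM in every library, and 1 was tested. That gene, CCL28, a mucosal chemokine that acts on CCR10 and CCR3, stood at 0.912, 1.17 and 0.914 RPKM with the plasmid and at 2.11, 1.83 and 2.65 RPKM with vector. It fell, with separate groups and a log2 fold change of -0.99 (SE 0.16, limma adjusted p = 0.00376). Of 23 receptors listed, 17 were matched and 3 were tested, 0 of which passed with limma, while 2 had an unadjusted p under 0.05. CCR10 averaged 5.61 ± 1.62 RPKM with the plasmid and 8.37 ± 0.409 RPKM with vector (adjusted p = 0.0685), and ACKR4, an atypical receptor that takes up chemokines, 0.562 and 0.802 RPKM (adjusted p = 0.0676). CXCR5, the receptor of CXCL13, averaged 0.979 and 0.927 RPKM (adjusted p = 0.601). In bulk RNA of this kind, fewer cells that express a gene and less RNA per cell cannot be told apart.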

How the data were processed

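RNA of 6 HK-2 libraries was sequenced as read pairs from a stranded mRNA kit, per the labels' protocols. The authors deposited RPKM per gene; the submitters' processing notes name Trimmomatic 0.36, featureCounts of Subread 1.5.1, edgeR 3.12.1 and GRCh38. Not given in the sources used here are the aligner, the annotation version and the strand setting of the counting. The series' design text dates profiling to 24 h after treatment, whereas 12 h of reoxygenation stand in the sample labels and are given here.

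Whole reads were worked out from RPKM with GENCODE 29 exon lengths: of 24697 genes with such a length, 22385 (90.6%) were whole within 0.02 reads in all 6 libraries. For the rest, CCL20 among the members, the smallest length that gave whole reads was used. Of read numbers from 1 to 20, 78.6% were even. Names turned into dates (28) were left out.

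limma 3.58.1 (R 4.3.3; trend and robust prior) tested log2(RPKM + 0.1) after trimmed-mean scaling of recovered reads (factors 0.958 to 0.996 with the circAASS plasmid and 1.018 to 1.036 with vector), on genes with about 10 reads at the median library size in 3 libraries and 15 in all. Two-sided p-values were adjusted over all 19349 tested genes; means ± SD are of deposited RPKM. Alternatives were another scaling, pseudocount, filter or prior, a block for the repeat number, and leaving out each library. The fit was tested on simulated data. Transcripts were compared with BLAST 2.17.0 and exact runs of at least 50 bases; promoters are those of RefSeq, GRCh38.p14.

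The members and lists were chosen with earlier results of these data known. Named are the 10 members and up to 4 members of each list with the smallest p. Every member of a direction with 5 or fewer calls and neighbours within 250 kb that passed are named too. Some further genes were chosen after their values were seen. These were the markers, RELA, NFKB1, NFKB2, RELB, FOSL1, JUND, ATF3 and the 6 falling transcription factors. They also include TNF, ZFP36, ZFP36L1, MAPKAPK2, DCP1A, TIAL1, ZC3H12A, ADAM10, ADAM17 and MTHFD2L. Intervals of the fit cover the spread between libraries only.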

Additional observations from a re-analysis of the deposited data

How the results depend on the processing

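Of the 9 tested chemokines, CXCL8, CXCL2 and CXCL3 kept their direction and their call in all 14 alternatives run, with log2 fold changes of 0.30 to 0.39, -0.50 to -0.41 and -0.83 to -0.70. CXCL5 passed with library size alone (-0.18, adjusted p = 0.0492). CCL2 lost its call without the filter (0.87, adjusted p = 0.122) and with the repeat number as a block (0.87, adjusted p = 0.0578), and ranged from 0.65 to 1.00 in the fits that each left out a library, 3 of which called it; its value was 0.18 with a pseudocount of 1 RPKM and 1.48 with 0.01 RPKM. In the same fits CXCL1 ranged from -0.46 to 0.05 and CCL20 from -0.44 to 0.04, both turning sign without a call. The number of chemokines that rose was 1 without the filter, with a mean of at least 1 RPKM (where CCL2 is not tested) and with the block, and 1 to 2 without single libraries. Over all genes, 3091 rose and 3152 fell; library size alone gave 2159 and 4023 and moved the median log2 fold change by -0.07; without single libraries 2094 to 2791 rose and 2039 to 2883 fell, the fewest without vector repeat 2.

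Of the lists, receptors that fell were 0, but 2 with library size alone, 1 without trend and with the block, and 0 to 1 without single libraries. Proteases that rose were 0, and 0 to 1 without single libraries. Pathway genes that fell were 5 with library size alone and 2 to 3 without single libraries. Decay factors that rose were 4 with library size alone, and 4 to 8 without single libraries; those that fell were 3 with the block and 3 to 5 without single libraries. The cause of these differences was not tested. Tests with edgeR and DESeq2 on reads worked out from RPKM were run at first and then left out. Count models are not used here on deposited RPKM, and those reads serve for scaling, the filter and sums alone. Both tests kept the 4 chemokine calls and called markedly more decay factors as higher than limma did. As withdrawn fits without values given here, they lend no weight to any call. Repeat numbers did not pair the libraries: deviations of same-numbered libraries correlated at -0.005, -0.024 and 0.023. The block gave 2729 genes that rose and 2699 that fell. Counting error limits CXCL6, CCL2, CCL20 and CXCL1, with 2 to 110 reads a library, and would be larger than read numbers imply if mates were counted separately.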
